A study of Mus musculus with 18 samples.

Results

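The genes described here are 41 mouse genes of adult hippocampal neurogenesis and proliferation, chosen by name. They comprise 7 genes of stem cells and radial glia, 5 of progenitors and neuronal commitment, 13 of the cell cycle and 16 of immature neurons. All 41 symbols matched a row of the deposited table, which holds 57180 gene identifiers, and 40 had enough counts to be tested, among 16738 genes tested in all. Tfap2c, a transcription factor of early dentate progenitors, was too low for the test, at 0.0881 to 0.555 CPM (counts scaled to a common library size) and 2 to 12 counts in a library. RNA came from the hippocampus of 18 wild-type (WT) adolescent male C57BL/6J mice, with 1 library per mouse and 6 mice per group. Control mice had no treatment. CSDS mice went through chronic social defeat stress in a resident-intruder arrangement, where an intruder is attacked over and over by an aggressive home-cage male. Exercise mice went through the same CSDS and trained aerobically from 1 week before the defeat until its end, so the effect of training is compared only among stressed mice. The labels give no age in days, and all libraries carry the same batch label.

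New granule neurons are added to the dentate gyrus of the adult mouse hippocampus. Radial glia-like stem cells, which carry Sox2, Nes and Hopx, give rise to dividing progenitors that turn on Eomes and Neurod1, and their daughters pass through an immature stage marked by Dcx. Voluntary running is known to raise this output in rodents and chronic stress to lower it. Many of the genes are not confined to that lineage: Sox2 and Hopx are also active in astrocytes, Notch1 and cyclin D1 in glia and vessels, and the tubulin and growth cone genes in mature neurons.

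Total estimated counts were 18911080 to 24136591 per library. The hippocampal label was checked against 15 markers of dentate granule cells, whose mean was 5.09 to 5.83 log2 CPM in 17 libraries. In the remaining one, control mouse 2, it was 2.91, and 15 neocortical neuron markers stood at 5.56 against 3.63 to 4.25 in the other 17. Results that rest on the controls are therefore given with and without control mouse 2. Other tissue varied too. The mean of 11 thalamic neuron markers was 4.87 and 5.69 log2 CPM in control mice 1 and 3, and 4.92 and 6.13 in exercise mice 3 and 6. It was 2.98 to 3.25 in CSDS mice. The mean of 7 choroid plexus markers ran from 0.29 to 6.87 in controls, 2.29 to 6.99 in CSDS mice and 1.44 to 6.66 in exercise mice. The part of such tissue in the values of the members was not tested. In bulk tissue, fewer cells of a type and less RNA per cell cannot be told apart. Libraries also differed in how gene levels followed the GC content of transcripts. The slope, in log2 units per 10 percentage points, ran from -0.0924 to 0.306 in controls, from -0.153 to 0.283 in CSDS mice and from -0.443 to 0.195 in exercise mice. Results of exercise are therefore also given after removal of that trend, called GC correction below.

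Per kilobase of the longest annotated transcript, the members spread over a wide range of levels. The highest were Stmn1, a microtubule-destabilising protein, at 223 CPM per kb over all mice, Tubb3 (141) and Tubb2b (115), neuronal tubulins, and Gap43 (96.3), a growth cone protein. Dcx, the microtubule protein that marks newborn neurons, was at 1.55 CPM per kb and ranked 31 of 41. The lowest were Mki67, a nuclear protein of dividing cells, at 0.207, Cdk1, the mitotic kinase, at 0.131, and Tfap2c at 0.0759 CPM per kb. Cdk1 rested on 4 to 25 counts in a library and Ccnb1, its cyclin partner, on 5 to 24, so their counting error is large. Stmn1 ranged from 123 to 631 CPM per kb over single mice, and the ranges of Stmn1, Tubb3, Tubb2b and Gap43 overlapped.

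**Figure D1:**
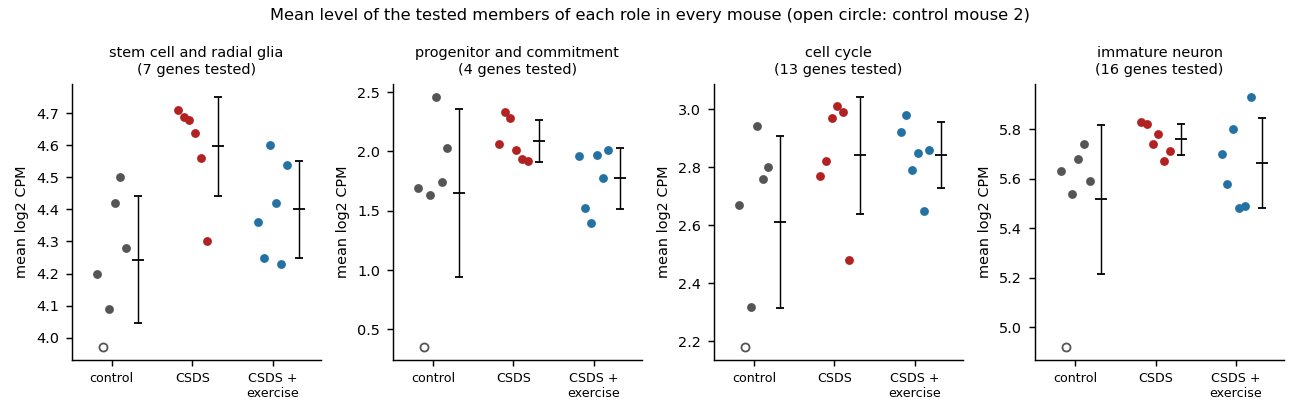
Mean log2 CPM of the tested members of each role in every mouse, by group; points are mice, the bar beside each group is the mean and SD (n = 6), the open circle is control mouse 2, and the axes do not start at 0. Control mouse 2 is the lowest of all 18 mice for stem cell (3.97), progenitor (0.35), cell cycle (2.18) and immature neuron members (4.92).

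The first comparison, CSDS against control, asked whether repeated defeat was followed by other levels of these genes. No member differed between the groups past the threshold (edgeR's quasi-likelihood test, p adjusted by Benjamini-Hochberg across the 16738 genes, threshold 0.05), and 0% of all genes did. Most members lay on the higher side in CSDS mice: 34 of 40 had a positive log2 fold change, with a median of 0.24, against a median of 0.00 over all genes. Without control mouse 2, 31 of 40 were positive, with a median of 0.17 against 0.01 for all genes. With GC correction the median was 0.21, and with both it was 0.12.

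At an unadjusted p under 0.05, 6 members were higher and 0 lower in CSDS mice. Over all genes these shares were 1.83% higher and 1.68% lower. Without control mouse 2, 1 member (Sox1) was higher and 0 lower at that p, against 1.41% and 0.968% of all genes, and with GC correction 4 were higher and 0 lower, against 2.09% and 2.05%. DESeq2 called 0 members, against 0.0032% of the genes it tested, and limma voom with quality weights called 0, against 0%. The CSDS and control mice overlapped for every tested member, while 0.155% of all genes were higher and 0.0836% lower in CSDS mice without overlap.

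All 7 stem cell and radial glia members had a positive fold change in CSDS mice, with a median of 0.33, and all 7 remained positive without control mouse 2 (median 0.25) and with GC correction (median 0.27). Values below are the lowest, median and highest mouse of a group. Sox2, the transcription factor that maintains neural stem cells, was at 28.1, 31.4 and 35.8 CPM in controls, at 32.5, 35.5 and 40.0 CPM in CSDS mice and at 30.5, 33.4 and 36.8 CPM in exercise mice. Its log2 fold change for CSDS against control was 0.18 ± 0.08 (SE, n = 6 mice per group), with an adjusted p of 0.993 by edgeR's test, and 0.16 without control mouse 2. Each of the 6 CSDS mice was above the control median, although the groups overlapped.

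Sox1, a related factor of neural progenitors, was at 13.8, 16.6 and 21.0 CPM in controls, 17.7, 23.0 and 28.5 CPM in CSDS mice and 15.9, 19.0 and 32.5 CPM in exercise mice. In CSDS mice against controls the means were 23.1 ± 3.71 and 17.3 ± 2.84 CPM (SD, n = 6), a log2 fold change of 0.41 ± 0.16 (edgeR adjusted p = 0.993), and again all 6 CSDS mice exceeded the control median. Without control mouse 2 it was 0.39. Nes, an intermediate filament of neural stem cells that endothelial cells of growing vessels also make, was at 14.5, 16.2 and 18.7 CPM in controls, 14.8, 20.6 and 24.3 CPM in CSDS mice and 9.73, 16.1 and 21.6 CPM in exercise mice. Nes had a log2 fold change of 0.33 ± 0.16 (0.34 without control mouse 2), and 5 of 6 CSDS mice were above the control median.

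Fabp7, a fatty acid binding protein of radial glia and astrocytes, was at 7.18, 8.58 and 15.2 CPM in controls, 6.32, 17.7 and 19.0 CPM in CSDS mice and 8.81, 14.9 and 34.3 CPM in exercise mice. The log2 fold change was 0.65 ± 0.32 for CSDS against control, the largest of the 7 (0.61 without control mouse 2), and 1 CSDS mouse, mouse 6, was lower than every control. Hopx, a homeodomain protein of quiescent stem cells, had 0.35 ± 0.20 (0.20 without control mouse 2, which held 19.1 CPM against 39.5 to 67.4 CPM elsewhere). Notch1, the receptor that keeps stem cells undifferentiated, had 0.28 ± 0.21 (0.19), and Hes5, a target of Notch signalling, 0.24 ± 0.20 (0.25), or 0.08 with GC correction. Astrocytes also express Sox2, Hopx and Fabp7, and the mean of 10 astrocyte markers was 7.86 ± 0.04 log2 CPM in controls and 7.88 ± 0.07 in CSDS mice. The mean of 8 oligodendrocyte precursor markers was 5.09 ± 0.25 in controls and 5.29 ± 0.24 in CSDS mice. The part of glial cells in the stem cell values was not tested.

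All 4 tested progenitor and commitment members had a positive fold change for CSDS against control (median 0.24), and 3 of 4 without control mouse 2 (median 0.14). Eomes, the transcription factor of intermediate progenitors, was at 0.0454, 0.635 and 1.96 CPM in controls, 0.545, 1.28 and 3.03 CPM in CSDS mice and 0.476, 1.14 and 5.07 CPM in exercise mice. The control at 0.0454 CPM was mouse 2, with 1 count. Eomes had the largest log2 fold change of all members, 0.84 ± 0.61 (edgeR adjusted p = 0.993), and the widest error, with 0.60 without control mouse 2.

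Neurod1, which drives progenitors to become neurons and stays on in granule cells, was at 8.12, 19.1 and 21.8 CPM in controls, 13.5, 21.3 and 24.2 CPM in CSDS mice and 16.0, 21.0 and 24.6 CPM in exercise mice. Its log2 fold change of 0.23 ± 0.19 moved to 0.09 without control mouse 2, the control at 8.12 CPM. Neurog2, a proneural factor upstream of Eomes, was at 0.318, 1.64 and 2.26 CPM in controls, 0.96, 1.60 and 2.39 CPM in CSDS mice and 0.698, 1.13 and 1.58 CPM in exercise mice. For Neurog2 the log2 fold change was 0.13 ± 0.34 and turned to -0.08 without control mouse 2. Insm1, a zinc finger repressor that pushes progenitors out of the stem cell state, had 0.25 ± 0.23 (0.20 without that mouse).

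Among the 13 cell cycle members, 10 were positive (median 0.20), or 9 without control mouse 2 (median 0.14). Mki67 was at 0.771, 1.63 and 2.97 CPM in controls, 1.77, 2.53 and 2.95 CPM in CSDS mice and 1.38, 1.99 and 2.86 CPM in exercise mice, from 17 to 70 counts in a library. The log2 fold change for CSDS against control was 0.53 ± 0.25 (edgeR adjusted p = 0.993), and 0.38 without control mouse 2, which was the lowest of all mice. Top2a, the topoisomerase that untangles chromosomes in mitosis, had 0.61 ± 0.32 (0.47 without control mouse 2), and Ccnb1 had 0.51 ± 0.33 (0.51). The 5 members of the replicative helicase (Mcm2, Mcm3, Mcm5, Mcm6, Mcm7) had 0.06 to 0.26, or -0.04 (Mcm6) to 0.27 (Mcm5) without control mouse 2. Pcna, the sliding clamp of DNA polymerase, had -0.12 ± 0.14 (-0.07).

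Cyclin D1 (Ccnd1), which carries cells from rest into the cycle, was at 53.4, 63.8 and 73.8 CPM in controls, 64.5, 70.4 and 87.0 CPM in CSDS mice and 53.6, 62.6 and 67.6 CPM in exercise mice. All 6 CSDS mice were above the control median, with a log2 fold change of 0.18 ± 0.09, or 0.14 without control mouse 2. It was 0.13 with GC correction, and 0.09 with GC correction and no control mouse 2. Ccnd2, the cyclin D that dentate progenitors depend on, had -0.01 ± 0.11 (-0.08 without that mouse), and only 1 of 6 CSDS mice was above the control median. Cdk1 had -0.05 ± 0.44 (-0.20).

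Promoter sequence was examined for motifs that cell cycle genes are known to share. E2F sites go with genes of DNA replication and CHR elements with genes of late cycle phases. RefSeq promoter windows (GRCm38.p6, 250 bases before to 50 after a gene's start) were given for 29 of the 41 members. An E2F site, searched on both strands as TTTGGCGC, TTTCGCGC, TTTCCCGC or TTTGCCGC, was found in 5 of 11 cell cycle members with a window (Cdk1, Mcm3, Mcm5, Mcm6, Mcm7) and in 1 of the other 18 (Hopx), against 2.6% of all genes with a window. The cell cycle homology region, CHR, searched as TTTGAA, was found in 4 of 11 (Cdk1, Mcm2, Mki67, Top2a), against 20.2% of all genes. It was also found in 2 of 7 stem cell and 2 of 8 immature neuron members, and in 8 of all 29 members (27.6%). CCAAT was found in 10 of 11, against 41.1%, and in 22 of all 29 members. The neurogenic E-boxes CAGATG or CAGCTG were found in 0 of 3 progenitor and 4 of 8 immature neuron members, against 33.4%. They were in 2 of 7 stem cell and 0 of 11 cell cycle members, and in 6 of all 29 members (20.7%). A match describes the letters only, and neighbouring E2F matches in Mcm5 and Mcm6 overlap.

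The stretches below are shown because they hold CHR matches of Mki67, Top2a and Cdk1 beside the E2F matches of Cdk1, Mcm5 and Mcm6. Each starts 160 bases before the RefSeq start and ends before the outermost annotated start of the gene, 5′ to 3′ on the gene's strand, with CHR and E2F matches in capitals. They lie at chr7:135716451-135716539 (minus strand) for Mki67, chr11:99024200-99024349 (minus) for Top2a, chr10:69352939-69353072 (minus) for Cdk1, chr8:75109349-75109467 (plus) for Mcm5 and chr1:128359706-128359865 (minus) for Mcm6.
Mki67: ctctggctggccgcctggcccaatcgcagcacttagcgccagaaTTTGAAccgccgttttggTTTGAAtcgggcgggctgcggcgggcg
Top2a: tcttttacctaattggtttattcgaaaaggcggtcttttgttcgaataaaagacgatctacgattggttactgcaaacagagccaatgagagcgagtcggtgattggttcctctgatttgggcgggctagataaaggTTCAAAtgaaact
Cdk1: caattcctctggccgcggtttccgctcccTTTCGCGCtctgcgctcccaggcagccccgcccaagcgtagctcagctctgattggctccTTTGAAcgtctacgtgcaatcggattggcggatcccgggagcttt
Mcm5: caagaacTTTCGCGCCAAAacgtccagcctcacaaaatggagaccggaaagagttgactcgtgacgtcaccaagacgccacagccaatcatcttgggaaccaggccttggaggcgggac
Mcm6: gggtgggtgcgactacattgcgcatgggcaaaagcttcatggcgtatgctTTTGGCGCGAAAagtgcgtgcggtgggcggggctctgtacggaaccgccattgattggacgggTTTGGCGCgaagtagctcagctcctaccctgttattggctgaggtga

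Mki67 holds CHR matches 116 and 98 bases before its start and no E2F match in the window, and Top2a holds CHR matches at 179 and 23 bases. Cdk1 holds both kinds, with E2F at 131 bases and CHR at 71 and 15 bases before the start. The Top2a match at 179 bases and the Cdk1 match at 15 bases lie in the windows but outside the stretches shown. Mcm6 holds E2F matches at 110, 106 and 47 bases and Mcm5 at 153 and 149 bases, and neither holds a CHR match. For CSDS against control, Top2a and Mki67 had log2 fold changes of 0.61 ± 0.32 and 0.53 ± 0.25 (SE). Mcm2 and Cdk1, the remaining cell cycle members with a CHR match, had 0.20 ± 0.18 and -0.05 ± 0.44. Cdk1 rested on 4 to 25 counts in a library, so its direction cannot be told. None of the 4 passed the adjusted threshold.

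Of the 16 immature neuron members, 13 were positive in CSDS mice (median 0.19), and 12 without control mouse 2 (median 0.14). Dcx itself was at 9.51, 12.5 and 15.3 CPM in controls, 10.4, 12.7 and 15.6 CPM in CSDS mice and 13.8, 15.9 and 21.9 CPM in exercise mice. With means of 12.9 ± 2.08 and 12.7 ± 2.17 CPM (SD, n = 6) in CSDS and control mice, its log2 fold change was 0.02 ± 0.14 (edgeR adjusted p = 0.997), and 0.08 without control mouse 2. Sox11, a transcription factor that turns on Dcx, had 0.05 ± 0.14 (-0.03 without that mouse), and 3 of 6 CSDS mice were above the control median for Dcx and 4 of 6 for Sox11.

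Marcksl1, an actin regulator of growing neurites, was at 48.7, 95.5 and 107 CPM in controls, 90.8, 109 and 130 CPM in CSDS mice and 76.1, 91.7 and 99.7 CPM in exercise mice. Tubb2b, a tubulin of migrating neurons, was at 108, 242 and 297 CPM in controls, 258, 294 and 342 CPM in CSDS mice and 177, 215 and 279 CPM in exercise mice. In both genes the lowest control was mouse 2. Tubb2b has a near-identical neighbour, Tubb2a, with which its reads may be shared, so its values are uncertain to that extent; Tubb2a was at 850 ± 97.6 CPM in CSDS and 673 ± 156 CPM in control mice (0.34 ± 0.14, or 0.21 without control mouse 2). The log2 fold change was 0.31 ± 0.14 for Marcksl1 and 0.39 ± 0.19 for Tubb2b (edgeR adjusted p = 0.993 for both), and without that mouse 0.18 and 0.24. With GC correction these were 0.23 and 0.36, and with GC correction and no control mouse 2 they were 0.12 and 0.22.

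Igfbpl1, a secreted protein of newborn granule cells, showed how far control mouse 2 carried a value: it was at 0.363 CPM there and at 2.91 to 10.1 CPM in the other 17 mice. Its log2 fold change was 0.66 ± 0.42 with that mouse and 0.41 without it. Stmn1 went the other way, at 669 CPM in control mouse 2 and 131 to 367 CPM elsewhere, and its log2 fold change of -0.53 ± 0.31 became -0.04. Draxin, an axon guidance protein, had 0.41 ± 0.28 (0.20 without that mouse), Dpysl5, a collapsin response mediator of neurite growth, 0.36 ± 0.20 (0.22), and Sox4, a partner of Sox11, 0.20 ± 0.11 (0.18). Together, control mouse 2 lay below all other 17 mice in 22 of the 40 tested members and above them in 1. By role these were 2 of 7 stem cell, 3 of 4 progenitor, 7 of 13 cell cycle and 10 of 16 immature neuron members. For Dcx, at 15.3 CPM, it lay inside the range of the others.

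**Figure D2:**
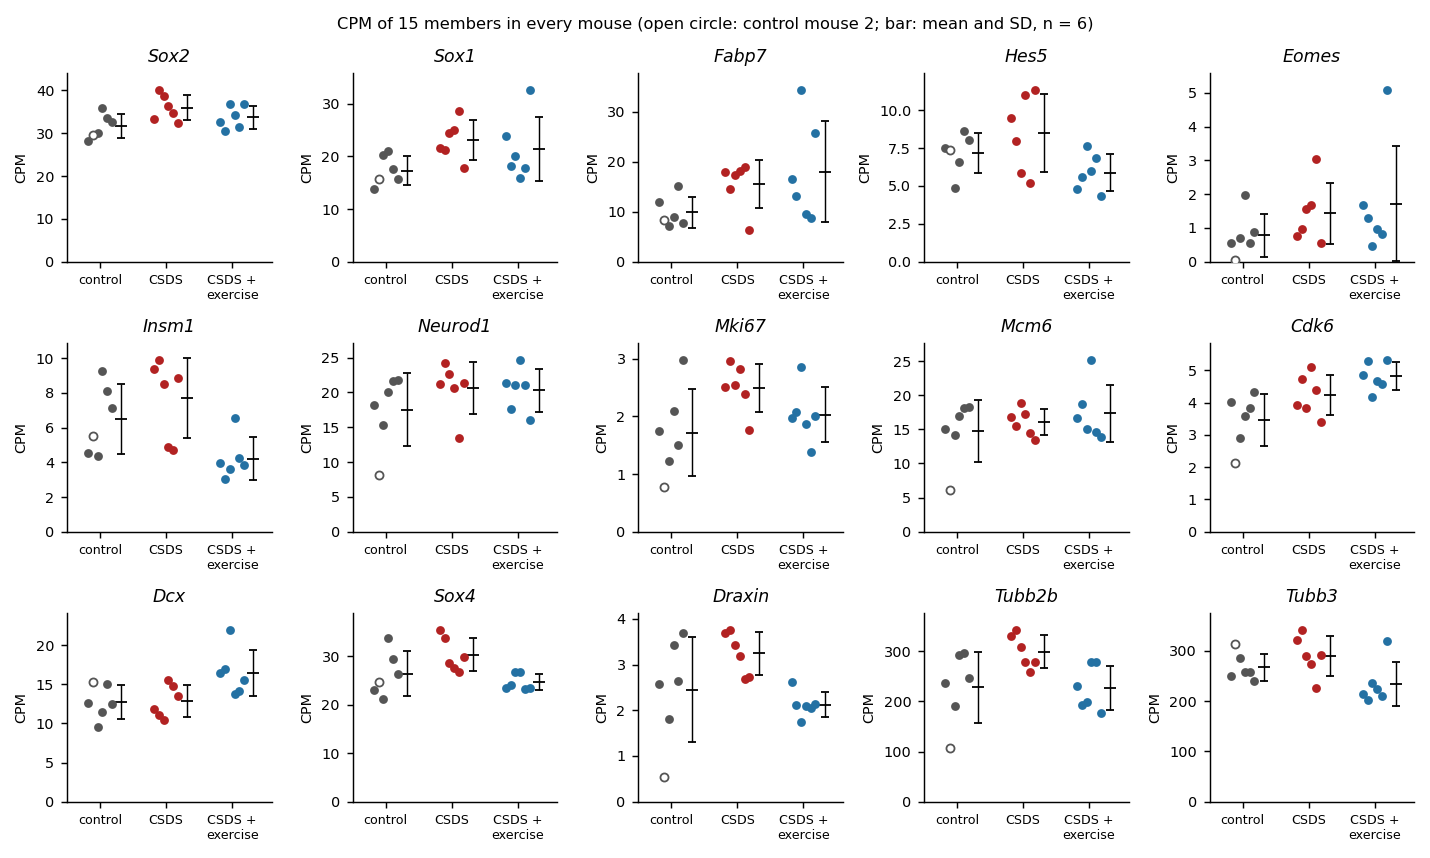
CPM of 15 members in every mouse, by group, on axes that start at 0; points are mice, the bar beside each group is the mean and SD (n = 6), and the open circle is control mouse 2. Sox4 and Draxin are the only tested members in which the exercise mice (23.3 to 26.7 and 1.75 to 2.61 CPM) all lie below the CSDS mice (26.8 to 35.3 and 2.68 to 3.75 CPM). The separation is narrow in both.

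Genes of the same pathways outside the 41 were counted from lists. Over all genes, 1.83% were higher and 1.68% lower at an unadjusted p under 0.05, or 1.41% and 0.968% without control mouse 2. Of 25 other stem cell and Notch genes, 18 had a positive fold change (median 0.11), with 1 higher and 1 lower at an unadjusted p under 0.05 and 0 past the adjusted threshold. The median was 0.07 without control mouse 2, with 19 positive, and 0 were higher and 1 lower at that p. Rbpj, the DNA-binding partner of Notch, was at 27.1 ± 2.29 CPM in CSDS and 31.9 ± 4.21 CPM in control mice (-0.23 ± 0.09, or -0.16 without control mouse 2), and Id3, an inhibitor of neuronal differentiation, had 0.22 ± 0.11 (0.15). Of 37 other cell cycle genes tested, 23 were positive (median 0.07), 3 were higher and 1 lower at an unadjusted p under 0.05 and 0 passed the adjusted threshold. For this list the median was 0.02 without control mouse 2, with 21 positive and again 3 higher and 1 lower. Ccna2, the cyclin of S phase and G2, was at 1.30 ± 0.265 against 0.825 ± 0.217 CPM (0.65 ± 0.24, or 0.69 without control mouse 2) and E2f2, a transcription factor of S phase entry, at 1.61 ± 0.283 against 0.996 ± 0.312 CPM (0.69 ± 0.25, or 0.62). Among the same genes, the kinetochore protein Cenpf had a log2 fold change of 1.28 ± 0.49, or 1.04. The immature neuron list held 31 further genes, 21 of them positive (median 0.10), with 3 higher and 0 lower at an unadjusted p under 0.05 and 0 past the adjusted threshold. Here 24 were positive without control mouse 2, with a median of 0.06, and 4 were higher and 0 lower. Sp8, a factor of immature interneurons, had 0.87 ± 0.37.

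Trained and untrained defeated mice were compared next, to ask whether exercise during the defeat was followed by other levels of these genes. No member passed edgeR's adjusted threshold, nor did any of all genes tested (0%). The members leaned to the lower side in trained mice, with 25 of 40 negative and a median of -0.13, against a median of 0.02 for all genes. Lower in trained mice at an unadjusted p under 0.05 were Insm1 and Hes5, regulators of progenitors and stem cells, and Ccnd1. The neuronal genes Sox4, Tubb3, Tubb2b, Draxin and Marcksl1 were also lower at that p, and Dcx lay higher. Of these, only Insm1 and Sox4 had an unadjusted p under 0.05 with GC correction. The median of the members was then -0.07, and 27 of 40 were negative.

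In this comparison 8 members were lower and 1 higher at an unadjusted p under 0.05, against 7.46% lower and 8.1% higher of all genes. With GC correction, 2 were lower (Insm1 and Sox4) and 1 higher (Cdk6), against 2.73% and 3.23% of all genes. Without exercise mouse 4, 9 were lower and 1 higher, against 15.4% and 11% of all genes. Trained mice lay below all CSDS mice in 2 members, Sox4 and Draxin, and above them in 0, against 0.526% and 0.364% of all genes. DESeq2 called 1 member, Insm1, against 0.967% of the genes it tested, and limma voom with quality weights called 14 of 40, against 33.3%; these were 3 higher (Dcx, Pcna and Cdk1) and 11 lower (Insm1, Tubb3, Sox4, Tubb2b, Nes, Hes5, Marcksl1, Notch1, Dpysl5, Draxin and Bhlhe22). Across the 40 members, which share the libraries and their base composition, the log2 fold change had a correlation of -0.53 with GC content. With GC correction this correlation was 0.03, which is largely set by the removal of the trend and is not a separate result. The 15 members under the median GC content of all genes (50.5%) had a median of 0.05, and the 25 above it -0.21.

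**Figure D3:**
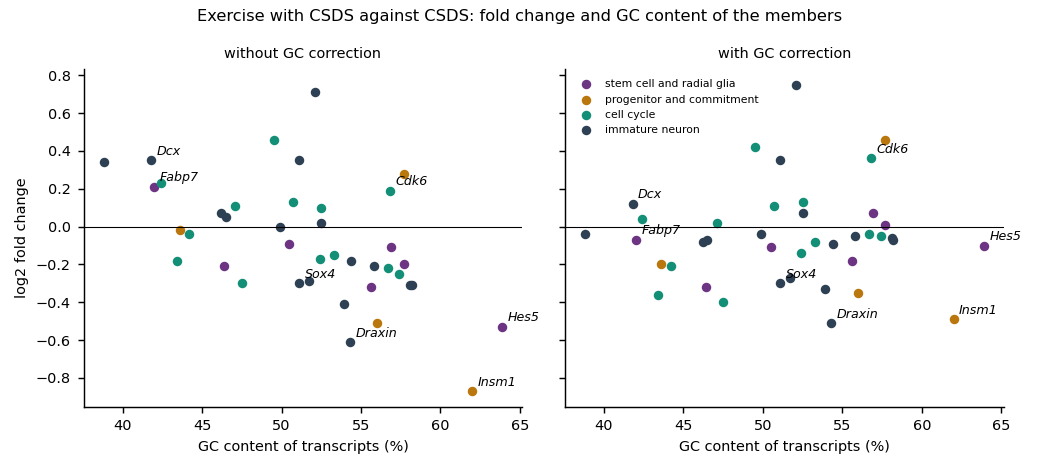
Log2 fold change of exercise with CSDS against CSDS for each tested member (y axis) by the GC content of its transcripts in percent (x axis), without and with GC correction, coloured by role. Without correction the members of high GC content lie lower (Insm1 at -0.87, Hes5 at -0.53, Dcx at 0.35), and with it Insm1 lies at -0.49, Hes5 at -0.10 and Dcx at 0.12.

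Insm1 had the smallest p of all members. It was at 4.36, 6.33 and 9.28 CPM in controls, 4.70, 8.68 and 9.88 CPM in CSDS mice and 3.05, 3.92 and 6.58 CPM in exercise mice. Of the 6 trained mice, 5 were at or below 4.23 CPM, below every CSDS mouse, and trained mouse 4 at 6.58 CPM lay inside the CSDS range. The log2 fold change was -0.87 ± 0.24 (edgeR adjusted p = 0.198; DESeq2 adjusted p = 0.0479), and -0.49 with GC correction. Without exercise mouse 4, the only trained mouse whose GC slope was positive (0.195), it was -1.06 ± 0.24 with an adjusted p of 0.0357 by edgeR. Insm1 was then the only member called (1 of 40, against 3.71% of all genes). Since that mouse held the highest Insm1 of the trained mice, leaving it out lowers their mean, and the call adds no support. Insm1 transcripts were at 62% GC, and GC correction was not run without that mouse. The CSDS mice themselves were uneven, with 2 of 6 (4.70 and 4.91 CPM) far below the other 4 (8.51 to 9.88 CPM).

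The other progenitor members varied in direction. Neurog2 had a log2 fold change of -0.51 ± 0.34, or -0.35 with GC correction, and all 6 trained mice were below the CSDS median. Neurod1 had -0.02 ± 0.19, or -0.20 with GC correction. Eomes had 0.28 ± 0.58, and 1 trained mouse, mouse 6, held 5.07 CPM against 0.476 to 1.69 CPM in the other 5. Without that mouse the log2 fold change of Eomes was -0.43.

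Of the 7 stem cell members, 6 had a negative fold change (median -0.20), or 5 with GC correction (median -0.10). Hes5 was at 4.85, 7.45 and 8.64 CPM in controls, 5.21, 8.73 and 11.3 CPM in CSDS mice and 4.33, 5.80 and 7.62 CPM in exercise mice, all 6 trained mice being below the CSDS median. The GC content of Hes5, 63.9%, was the highest of the members, and its log2 fold change of -0.53 ± 0.20 (edgeR adjusted p = 0.242) was -0.10 with GC correction. Nes had -0.32 ± 0.16 (-0.18 with GC correction), Hopx -0.21 ± 0.20 (-0.32), Notch1 -0.20 ± 0.21 (0.01), Sox1 -0.11 ± 0.16 (0.07) and Sox2 -0.09 ± 0.08 (-0.11). Fabp7 was the exception at 0.21 ± 0.32, and it was at -0.07 with GC correction and at -0.08 without trained mouse 3.

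Cell cycle members were split, with 6 positive and 7 negative fold changes in trained mice (median -0.04). Ccnd1 had a log2 fold change of -0.22 ± 0.09 (edgeR adjusted p = 0.251) and -0.04 with GC correction, with no trained mouse above the CSDS median. Pcna was at 27.5, 38.0 and 42.2 CPM in controls, 26.8, 30.5 and 43.3 CPM in CSDS mice and 32.9, 38.2 and 45.8 CPM in exercise mice. Pcna had 0.23 ± 0.14, all 6 trained mice being above the CSDS median, and 0.04 with GC correction. Mki67 had -0.30 ± 0.25 and Top2a -0.18 ± 0.32, and both were further from 0 with GC correction (-0.40 and -0.36). Cdk6, a kinase that works with the D cyclins, had 0.19 ± 0.16, or 0.36 with GC correction.

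Immature neuron members held both the highest and several of the lowest values. Dcx had a log2 fold change of 0.35 ± 0.14 in trained against untrained CSDS mice (16.4 ± 2.92 against 12.9 ± 2.08 CPM, SD, n = 6; edgeR adjusted p = 0.253), with all 6 trained mice above the CSDS median. With GC correction it was 0.12, the transcripts of Dcx being at 41.8% GC. Sox4 was at 21.1, 25.5 and 33.7 CPM in controls, 26.8, 29.2 and 35.3 CPM in CSDS mice and 23.3, 23.8 and 26.7 CPM in exercise mice. The trained and untrained CSDS mice did not overlap, but only narrowly, at 26.7 CPM against 26.8 CPM. Overlap with GC correction was not tested. The log2 fold change of -0.30 ± 0.11 (edgeR adjusted p = 0.227) was the same with GC correction, Sox4 being at 51.1% GC.

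Draxin was at 2.57, 0.545, 1.81, 3.43, 2.64 and 3.69 CPM in the 6 controls, 2.68 to 3.75 CPM in CSDS mice and 1.75 to 2.61 CPM in trained mice. These rested on 33 to 57 counts in the trained and 53 to 81 in the CSDS libraries, so the counts before scaling overlapped. The log2 fold change of Draxin was -0.61 ± 0.29 (edgeR adjusted p = 0.312), and -0.51 with GC correction. Tubb3 was at 241, 258 and 313 CPM in controls, 226, 291 and 341 CPM in CSDS mice and 202, 219 and 320 CPM in exercise mice, where mouse 6 held the 320. For Tubb3 the log2 fold change was -0.31 ± 0.11 (edgeR adjusted p = 0.242), or -0.06 with GC correction. Tubb2b had -0.41 ± 0.19, or -0.33, and Marcksl1 -0.31 ± 0.14, or -0.07, and in both no trained mouse was above the CSDS median.

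Calb2, the calcium-binding protein calretinin, is made by immature granule cells and also by neurons of the thalamus and other regions. It was at 224 CPM in trained mouse 6 and at 19.0 to 56.2 CPM in the other 5 trained mice, for a log2 fold change of 0.71 ± 0.49. The group medians, which 1 mouse moves little, were 45.3 CPM in trained and 43.6 CPM in CSDS mice. In trained mouse 6 the mean of 11 thalamic neuron markers was 6.13 log2 CPM, against 3.12 to 4.92 in the other trained mice and 2.98 to 3.25 in CSDS mice. Among controls, mouse 3, with thalamic markers at 5.69 log2 CPM, held the highest Calb2, 90.4 CPM. The part of thalamic RNA in the Calb2 values was not tested.

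**Figure D4:**
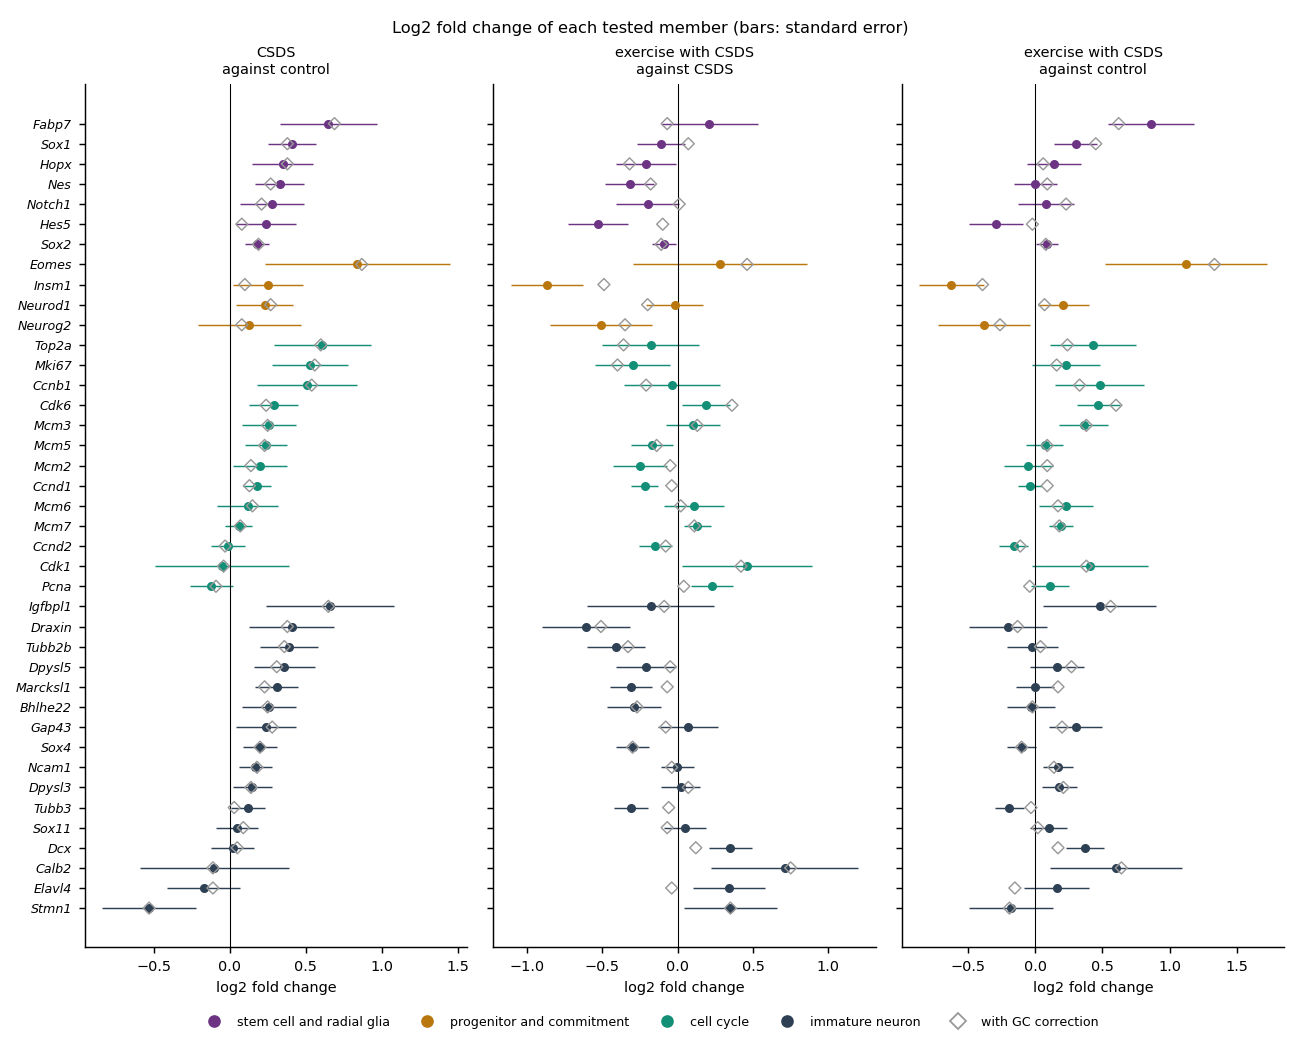
Log2 fold change of each tested member (x axis) in the 3 comparisons, with standard errors as bars, coloured by role and ordered within a role by CSDS against control; open diamonds are values with GC correction. Stem cell members lie between 0.18 and 0.65 in CSDS against control and between -0.53 and 0.21 in exercise against CSDS, and for Insm1, Hes5, Tubb3 and Marcksl1 the diamonds lie nearer 0 in exercise against CSDS.

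Among genes outside the 41, 18 of 25 other stem cell and Notch genes were negative in trained mice (median -0.18). At an unadjusted p under 0.05, 0 were higher and 6 lower, against 8.1% and 7.46% of all genes, and 0 passed the adjusted threshold. With GC correction 19 of the 25 were negative, with a median of -0.09. Then 2 had an unadjusted p under 0.05, against 3.23% higher and 2.73% lower of all genes. Without exercise mouse 4, 19 of the 25 were negative with a median of -0.30. At that p 1 was then higher and 11 lower, where 11% of all genes were higher and 15.4% lower. Id1, an inhibitor of differentiation that bone morphogenetic proteins turn on, had a log2 fold change of -0.38 ± 0.11 (edgeR adjusted p = 0.198; -0.26 with GC correction), Id3 had -0.29 ± 0.11 (-0.16) and Emx2, a transcription factor of neural stem cells, -0.30 ± 0.12 (-0.38). Of 37 other cell cycle genes, 18 were positive and 19 negative (median -0.02), and 0 had an unadjusted p under 0.05 or passed the adjusted threshold. Of 31 other immature neuron genes, 14 were positive and 17 negative (median -0.01), with 1 higher and 6 lower at an unadjusted p under 0.05 and 0 past the adjusted threshold. Basp1, a growth cone protein related to Gap43, was at 392 ± 39.0 against 557 ± 77.1 CPM (-0.51 ± 0.12; edgeR adjusted p = 0.163; -0.30 with GC correction), and Sp9, a factor of immature interneurons, at 4.84 ± 0.772 against 7.80 ± 1.93 CPM (-0.69 ± 0.23; -0.62 with GC correction). Without exercise mouse 4, 1 of these 31 passed edgeR's adjusted threshold (smallest adjusted p = 0.0439), against 3.71% of all genes, and the median of the list was -0.07, with 2 higher and 8 lower at an unadjusted p under 0.05.

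Markers of oligodendrocyte precursors differed in mean between these groups with overlapping ranges. The mean of 8 oligodendrocyte precursor markers, cells that also divide in the adult brain, was 5.09 ± 0.25 log2 CPM in controls, 5.29 ± 0.24 in CSDS mice and 4.99 ± 0.17 in exercise mice (SD, n = 6). Their ranges were 4.81 to 5.53, 4.89 to 5.58 and 4.76 to 5.19, and all 8 were detected in every library. For exercise against CSDS the 8 had a median log2 fold change of -0.38. At an unadjusted p under 0.05, 4 were lower, against 7.46% of all genes. With GC correction the median was -0.06, with 0 lower, against 2.73%. For CSDS against control the median was 0.17, or 0.10 with GC correction and 0.14 without control mouse 2. Dentate granule cell markers were at 5.34 ± 0.07 in CSDS and 5.36 ± 0.26 in exercise mice, and astrocyte markers at 7.88 ± 0.07 and 7.88 ± 0.10. The part of oligodendrocyte precursors in the cell cycle values was not tested.

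The third comparison, exercise with CSDS against control, set mice that were both stressed and trained beside untreated ones. It shares its libraries with the first and second comparison, so the 3 sets of fold changes are not independent. Again 0 members passed edgeR's adjusted threshold, against 0.0179% of all genes, and DESeq2 and limma voom with quality weights called 0 members, against 0.641% and 1.09%. On the higher side were 28 of 40 members (median 0.15, against 0.01 for all genes), or 26 without control mouse 2 (median 0.07). At an unadjusted p under 0.05, 4 members were higher (Cdk6, Dcx, Fabp7 and Mcm7) and 1 lower (Insm1), against 6.8% and 4.39% of all genes. Without control mouse 2, 3 were higher (Cdk6, Dcx and Fabp7) and 3 lower (Insm1, Draxin and Neurog2), against 7.43% and 4.3% of all genes. With GC correction 6 were higher (Cdk6, Mcm7, Mcm3, Fabp7, Sox1 and Eomes) and 1 lower (Insm1), against 4.26% and 3.18%, and Dcx was not among them. For no member did trained and control mice fail to overlap, against 0.46% of all genes higher and 0.102% lower in trained mice.

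Cdk6 was at 2.13, 3.71 and 4.32 CPM in controls, 3.41, 4.16 and 5.09 CPM in CSDS mice and 4.18, 4.76 and 5.31 CPM in exercise mice. Its log2 fold change of trained against control mice was 0.47 ± 0.16 (edgeR adjusted p = 0.276), 0.37 without control mouse 2, the control at 2.13 CPM, and 0.60 with GC correction. All 6 trained mice were above the control median. Mcm7, a subunit of the replicative helicase, was at 12.0, 12.8 and 15.9 CPM in controls, 11.4, 13.9 and 15.5 CPM in CSDS mice and 14.1, 14.9 and 16.4 CPM in exercise mice, a log2 fold change of 0.19 ± 0.09 (edgeR adjusted p = 0.439) that was 0.18 with GC correction and 0.18 without control mouse 2.

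Fabp7 had a log2 fold change of 0.86 ± 0.32 (edgeR adjusted p = 0.327), 0.82 without control mouse 2 and 0.62 with GC correction. Over 23 alternative fits it was 0.50 to 1.03. All 6 trained mice were above the control median of Fabp7, and its highest values were in trained mice 3 (34.3 CPM) and 6 (25.7 CPM). Their thalamic marker means were 4.92 and 6.13 log2 CPM, against 3.12 to 3.18 in the other trained mice. The part of thalamic RNA in the Fabp7 values was not tested. Sox1 had 0.30 ± 0.16, or 0.27 without control mouse 2. Eomes had 1.12 ± 0.60, or 0.87 without control mouse 2. It was 0.41 to 1.64 over 23 alternative fits, which included leaving out single mice. Trained mouse 6 held 5.07 CPM of Eomes, against 0.476 to 1.69 CPM in the other trained mice. The log2 fold change of Dcx was 0.37 ± 0.14 (edgeR adjusted p = 0.330), 0.43 without control mouse 2 and 0.17 with GC correction. For Dcx all 6 trained mice were above the control median. Insm1 lay at -0.62 ± 0.24 (edgeR adjusted p = 0.348), -0.66 without control mouse 2 and -0.39 with GC correction. Neurog2 (-0.38 ± 0.34) and Draxin (-0.20 ± 0.29) lay further from 0 without that mouse, at -0.59 and -0.41. Ccnd1 (-0.04 ± 0.09), Nes (0.0019 ± 0.16), Marcksl1 (0.0012 ± 0.14) and Tubb2b (-0.02 ± 0.19) were near 0 here, and without control mouse 2 they were -0.09, 0.02, -0.13 and -0.16.

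By role, trained against control mice had medians of 0.09 in stem cell, -0.09 in progenitor, 0.23 in cell cycle and 0.13 in immature neuron members. Without control mouse 2 these were 0.02, -0.26, 0.16 and 0.04. In the pathway lists, 9 of 25 other stem cell and Notch genes (median -0.04), 21 of 37 other cell cycle genes (median 0.04) and 20 of 31 other immature neuron genes (median 0.06) were on the higher side, and 0 passed the adjusted threshold. At an unadjusted p under 0.05 there were 1 higher and 2 lower, 2 higher and 0 lower, and 3 higher and 0 lower. Over all genes 6.8% were higher and 4.39% lower at that p. The medians of these lists were -0.08, 0.05 and 0.08 without control mouse 2, and with GC correction -0.03, 0.02 and 0.05. Plk1, a mitotic kinase, was at 1.06 ± 0.253 CPM in trained and 0.557 ± 0.233 CPM in control mice (0.91 ± 0.35). Mcm10, a replication initiation factor, was at 0.632 ± 0.228 against 0.374 ± 0.109 CPM (0.75 ± 0.30), where counting error is large. Hes1, a target of Notch signalling, had -0.39 ± 0.14 (-0.22 with GC correction).

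Across mice, 10 pairs of measures were compared in the 18 libraries, after the group mean was removed, with Pearson's r, Spearman's rho and a two-sided permutation test within groups, adjusted over the 10 pairs. Mki67 and Top2a, which peak together in dividing cells, had r = 0.72 (adjusted permutation p = 0.0087) and rho = 0.62 (adjusted permutation p = 0.103). Neurod1 and the dentate granule cell markers had r = 0.84 (adjusted permutation p = 0.0087) and rho = 0.73 (adjusted permutation p = 0.0266). Both rested in part on control mouse 2: without it, r was 0.66 (adjusted permutation p = 0.0613) and 0.52 (adjusted permutation p = 0.0728), and without the 2 mice farthest from the median of Mki67 and Neurod1, r was 0.56 and 0.71 (adjusted permutation p = 0.0881 for both).

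None of the 5 pairs with Dcx passed: r was -0.39 with Igfbpl1, 0.27 with Sox11, -0.34 with Draxin, 0.04 with Mki67 and -0.37 with the dentate granule cell markers, with adjusted permutation p-values of 0.311 to 0.886. The matching rho values were -0.22, 0.29, -0.27, 0.07 and -0.33 (adjusted permutation p of 0.355 to 0.785). Without the 2 mice farthest from the median of Dcx, trained mouse 3 and control mouse 3, r was -0.35, -0.11, -0.45, -0.35 and -0.40. Without control mouse 2, r of Dcx and Sox11 was 0.59 (adjusted permutation p = 0.0728), so this pair had no stable sign. Mki67 and Cdk1 had r = 0.37 and rho = 0.38, Mcm3 and Mcm6 r = 0.55 and rho = 0.32, and Sox2 and Hes5 r = -0.12 and rho = -0.23, and none of these pairs passed either (adjusted permutation p of r 0.311, 0.16 and 0.724). Without the 2 mice farthest in the first gene of each pair, these r were 0.04, 0.18 and -0.10.

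**Figure D5:**
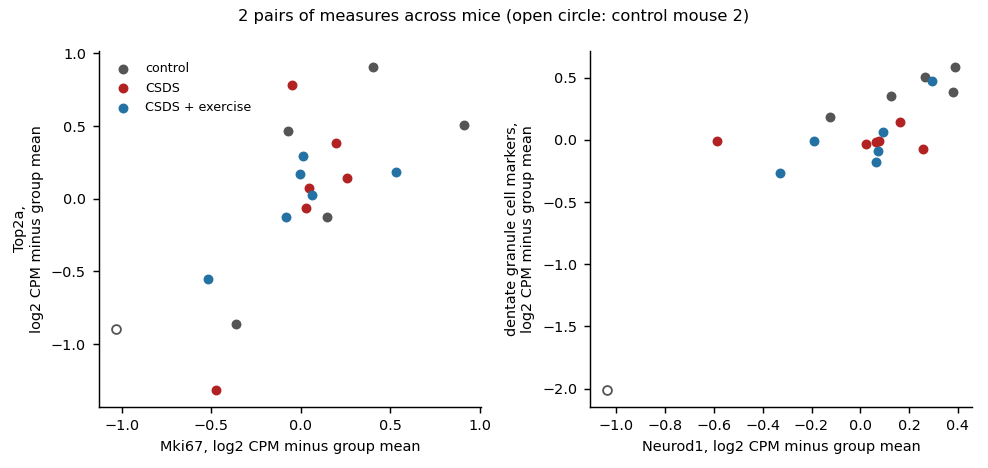
Top2a against Mki67, and the mean of 15 dentate granule cell markers against Neurod1, in log2 CPM minus the mean of the mouse's group; points are the 18 mice, coloured by group, and the open circle is control mouse 2. Control mouse 2 lies at the lower left of both plots, and r is 0.72 and 0.84 with it and 0.66 and 0.52 without it.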

How the data were processed

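Hippocampal poly(A) RNA of 18 mice was sequenced from stranded libraries on a NovaSeq X Plus, per the labels' protocols. Per the submitters' processing notes, reads were handled with fastp, HISAT2 and RSEM on GRCm38/mm10. Versions, annotation and strand setting were not given in these sources. The authors deposited 1 table of expected counts per gene, not normalized, in which 22.7% of nonzero values were not whole (tolerance 1e-09). Expected counts were rounded to whole numbers. Of 57180 Ensembl identifiers, 51884 matched a symbol in GENCODE M21.

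Genes were filtered with filterByExpr (minimum count 10, minimum total 15), scaled by TMM and fitted over all 3 groups with edgeR 4.0.16 (quasi-likelihood F test, prior count 2, R 4.3.3). P-values were adjusted by Benjamini-Hochberg over 16738 genes with a threshold of 0.05. The fit was tested on simulated data. Alternatives were DESeq2 1.42.0, limma 3.58.1 voom with quality weights, other scalings and filters, GC correction (lowess of each library on transcript GC content, span 0.3, known for 98.1% of genes tested), a replicate block and leaving out each library. Correlations used 100000 within-group resamples, on log2 CPM.

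The members and gene lists were chosen with earlier results of these data known. Any member may be named. Values in full go to Dcx, Mki67, Sox2, Eomes and Neurod1 and, in each comparison and role, to the 2 members with the smallest p, and of other pathway lists only the 3 genes with the smallest p in a comparison are named. Promoters are RefSeq windows on GRCm38.p6. Each library is 1 mouse and the labels name no litters or cages. Precision is limited by 6 mice per group and, for the lowest members, by few counts.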

Additional observations from a re-analysis of the deposited data

Results flagged for a closer look

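In 10 of 72 groups of 6 mice examined, 1 mouse stood apart from the other 5 by more than the 95% critical gap of Dixon's test. Chance gives this in about 1 of 20 independent groups. The 72 groups share mice, and the list means share genes with the single genes, so no excess over chance can be read from the count. Trained mouse 6 held 5.07 CPM of Eomes, against 0.476 to 1.69 CPM in the other trained mice, and 320 CPM of Tubb3, against 202 to 237 CPM. It also had the highest thalamic marker mean, 6.13 log2 CPM. Trained mouse 4 held 6.58 CPM of Insm1, against 3.05 to 4.23 CPM.

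CSDS mouse 6 held 6.32 CPM of Fabp7, against 14.5 to 19.0 CPM in the other CSDS mice. Its mean over the 7 stem cell and radial glia members was 4.30 log2 CPM, against 4.56 to 4.71, and over all 40 tested members 4.03, against 4.23 to 4.31. CSDS mouse 5 held 13.5 CPM of Neurod1, against 20.6 to 24.2 CPM.

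Control mouse 2 held 48.7 CPM of Marcksl1, against 87.5 to 107 CPM in the other controls, and its mean over the immature neuron members was 4.92 log2 CPM, against 5.54 to 5.74. Control mouse 4 held 15.9 CPM of Mcm7, against 12.0 to 13.2 CPM.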

How the results depend on the processing

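The median log2 fold change of the tested members kept its sign under all 23 alternatives in each of the 3 comparisons. In CSDS against control and in exercise against control 0 members were called under any of the 23. In exercise against CSDS, DESeq2 called 1, voom 14 and leaving out single mice 0 to 1. The number of pairs of measures that passed, 2, was 0 without control mouse 2 and 0 without the 2 mice farthest in the first measure.

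Signs turned mostly for values near 0; the cause was not tested. Trained against control mice, GC correction gave 0.09 for Ccnd1, -0.04 for Pcna and 0.04 for Tubb2b. GC correction without control mouse 2 gave 0.05 for Ccnd1, -0.02 for Pcna, 0.02 for Hes5, -0.09 for Neurod1 and 0.04 for Tubb3. For Marcksl1 and Nes the values were -0.02 and -0.02 with a filter of 1 CPM in 6 libraries, -0.01 and -0.01 with DESeq2 and with RLE size factors, -0.0046 and -0.004 with library size alone, -0.05 and -0.17 with voom, and -0.03 and -0.03 without a filter. In exercise against CSDS, GC correction, with all mice or without control mouse 2, gave -0.07 for Fabp7 and 0.07 for Sox1. For CSDS against control, Neurog2 was -0.12 with GC correction and no control mouse 2, and Dcx was -0.06 with voom, -0.0034 without a filter and -0.0049 with only these groups fitted.

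Replicate numbers did not pair the mice: same-numbered mice had correlations of -0.465 to 0.255, and 1 of 18 correlated best with its own number. With the replicate block 0 members were called in each comparison, and trained against control Nes was -0.02 and Tubb2b 0.0033. The block with GC correction gave 0.09 for Ccnd1, -0.05 for Pcna and 0.06 for Tubb2b there, and -0.07 for Fabp7 and 0.07 for Sox1 in exercise against CSDS.

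Leaving out single mice gave ranges of -0.09 to 0.01 for Ccnd1, -0.13 to 0.06 for Marcksl1, -0.13 to 0.11 for Nes and -0.16 to 0.07 for Tubb2b in exercise against control. In exercise against CSDS they were -0.43 to 0.61 for Eomes, lowest without trained mouse 6, -0.08 to 0.35 for Fabp7, lowest without trained mouse 3, and -0.13 to 0.04 for Neurod1. In CSDS against control they were -0.06 to 0.08 for Dcx and -0.08 to 0.30 for Neurog2. Across mice, r was 0.04 for Sox2 and Hes5 without removal of group means, and -0.35 for Dcx and Mki67 and -0.11 for Dcx and Sox11 without the 2 mice farthest in Dcx. Cdk1 and Ccnb1, at 25 counts or fewer in a library, are limited by depth.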
